A study of Homo sapiens with 4 samples.

Results

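Small nuclear RNA (snRNA) genes transcribed by RNA polymerase II (Pol II), together with the U8 small nucleolar RNA gene, were examined in MCF10A cells, an established non-tumour human breast epithelial line grown under normal conditions. The genes were chosen by location and with their measured enrichment known. They are RNU4-1, RNU4-2, RNU5A-1, RNU5B-1, RNU11, RNU12, RNU7-1, RNU2-2, RNU4ATAC and SNORD118, and they fall in 9 windows of the hg19 genome, because RNU4-1 and RNU4-2 lie side by side in 1 window. The series has 4 samples, chromatin immunoprecipitations (ChIP) of 53BP1, of Pol II phosphorylated on serine 5 (S5p) and of Pol II phosphorylated on serine 2 (S2p), and an input that was not analysed here. Each ChIP has 1 library and 1 list of enriched regions, so no value has a replicate error and no test was made. A region was found in 8 of the 9 windows, for 9 of the 10 genes, and each of these windows held exactly 1 region of each list: 8 of 11604 for 53BP1, 8 of 62530 for S5p and 8 of 54600 for S2p.

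These genes encode short, unspliced and non-polyadenylated RNAs. The U2, U4 and U5 RNAs are parts of the major spliceosome, and the U11, U12 and U4atac RNAs serve the minor spliceosome, which removes a rare class of introns. Not every member is spliceosomal: U7 RNA guides the 3′ end processing of replication-dependent histone mRNAs, and U8, encoded by SNORD118, is needed for ribosomal RNA maturation. Their promoters carry a distal sequence element and a proximal one, the latter bound by the SNAPc complex. The Integrator complex cuts the nascent RNA near a downstream signal. S5p is the form of Pol II usually densest near starts of transcription, S2p the form usually associated with elongation further downstream, and 53BP1 is a p53-binding protein best known for its role at DNA double-strand breaks.

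Every window that held a region held all 3 proteins. All 8 S5p regions met a 53BP1 region, as did 15.2% of the S5p list, and all 8 met an S2p region, as did 60.2% of the list. Both marks together were met by 12.3% of S5p regions. The authors' fold enrichment over background, used here only to order regions inside 1 list, placed all 8 windows above the 99th percentile for 53BP1, where 1.01% of that list lies. The same held for S5p, with 1% of the list beyond that percentile, but for S2p only the window of RNU7-1 lay there, again against 1% of the list. Because strong enrichment was part of how the genes were picked, these positions describe the windows and support nothing further.

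RNU11, encoding the U11 RNA that recognises the 5′ splice site of minor introns, had the highest 53BP1 fold of the windows. Its 53BP1 region on chromosome 1 at 28974744 to 28976111 had a fold of 104, the 3rd highest of the list. The S5p region there, 28973761 to 28975935, had a fold of 259 and rank 4, and the S2p region, 28974289 to 28975823, a fold of 23.9 and rank 1475. The S2p region was thus far further down its list than the other proteins' regions, at the 97.3rd percentile.

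SNORD118 came next for 53BP1. On chromosome 17 at 8076161 to 8077207 the 53BP1 fold was 89.9 (rank 4), in the narrowest 53BP1 region of the windows, 1047 bp. S5p had a fold of 149 (rank 77) over 2612 bp, and S2p a fold of 12.8 (rank 3534) over 2001 bp. That was the lowest S2p fold among the windows, beside one of the highest 53BP1 folds. By the −log10 q-value that the authors also deposited, S2p was lower at RNU5B-1 (109.9) than at SNORD118 (121.1).

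The U4 RNA, which pairs with and holds back U6 RNA until the spliceosome is activated, is encoded by both RNU4-1 and RNU4-2. On chromosome 12 a single 53BP1 region, 120728873 to 120731365, spanned the window with a fold of 82.6 (rank 5). S5p reached a fold of 263 (rank 3), the highest S5p fold of the windows, and S2p a fold of 25.04 (rank 1351). The lists give each region 1 summit, the position of its highest signal, and here all summits lay in the lower-coordinate part, at 26.7%, 33.6% and 27.7% of the width of the 53BP1, S5p and S2p region. In the RefSeq gene table (GRCh38.p14) RNU4-2 precedes RNU4-1, but no position was converted to hg19, so the summits were not assigned to either gene and the genes could not be told apart. At 2493 bp this was the widest 53BP1 region of the windows.

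The U5 genes RNU5A-1 and RNU5B-1, whose RNA aligns the exons during splicing, gave separate regions on chromosome 15. RNU5A-1 had a 53BP1 fold of 82.3 (rank 6) at 65587903 to 65589204, an S5p fold of 221 (rank 9) and an S2p fold of 22.3 (rank 1641). RNU5B-1 was lower in fold for each protein, with a 53BP1 fold of 68.6 (rank 10) at 65596693 to 65598174, an S5p fold of 191 (rank 29) and an S2p fold of 16.0 (rank 2574). By −log10 q-value RNU5B-1 was the higher for 53BP1 (409.5, beside 388.4 at RNU5A-1) and for S5p (2793, beside 2566). For S2p it was again the lower (109.9, beside 138.4). With 1 library per ChIP it cannot be said whether these differences between neighbours exceed experimental error. The spacing of their summits was 8675 bp for 53BP1, 8764 bp for S5p and 8757 bp for S2p. The 53BP1 list had no region in the 7488 bp between them and the S2p list none in 7556 bp, while S5p had a region of fold 6.26 there.

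RNU12 and RNU4ATAC are the remaining members assigned above to the minor spliceosome. RNU12, whose RNA pairs with the branch point of minor introns, had a 53BP1 fold of 66.9 (rank 11) on chromosome 22 at 43010242 to 43012098. Its S5p fold was 223 (rank 7) and its S2p fold 41.7 (rank 591). RNU4ATAC, encoding the minor counterpart of U4, had the lowest 53BP1 fold of the windows, 47.5 (rank 24), on chromosome 2 at 122288071 to 122289400. S5p there had a fold of 143 (rank 91) and S2p a fold of 16.6 (rank 2457). RNU11, RNU12 and RNU4ATAC therefore did not form a block of their own: RNU11 was first and RNU4ATAC last in 53BP1 fold.

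RNU7-1 departed from the others in its Pol II profile. Its 53BP1 fold was 57.8 (rank 17) on chromosome 12 at 7052068 to 7053818. S5p was the weakest of the windows, with a fold of 93.7 (rank 287), and S2p the strongest, with a fold of 75.4 (rank 150). It was the only window ranked higher for S2p than for S5p. As the next paragraphs show, that S2p fold belongs to a summit several kilobases from the 53BP1 summit.

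**Figure D1:**
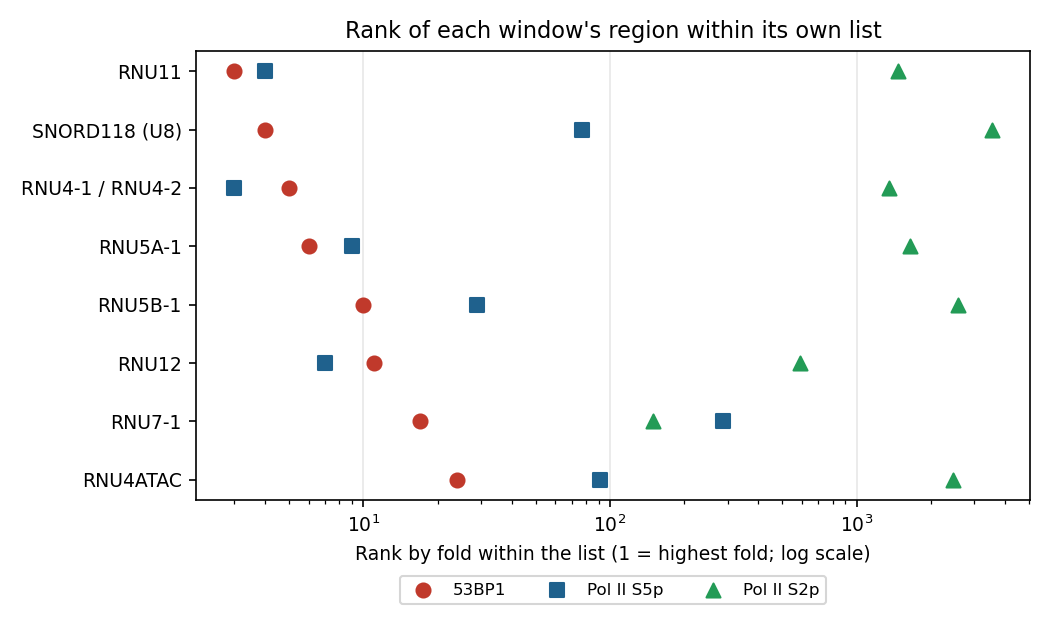
Rank of each window's region by fold within the 53BP1, S5p and S2p list (horizontal log axis, 1 is the highest fold), 1 library each and windows ordered by 53BP1 fold. The 53BP1 points lie between ranks 3 and 24 and the S5p points between 3 and 287, while the S2p points lie between 150 and 3534.

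For 53BP1 the windows, picked with these folds known, ranked no lower than 24, the rank of RNU4ATAC. Of the 8, 5 were among the first 10 and 7 among the first 20. The median 53BP1 fold over the 8 windows was 75.4, against 6.02 over the whole list and 29.0 over its upper 1% by fold. For S5p, 4 windows were among the first 10 and 7 among the first 100, and the median fold was 206, against 3.76 for the list and 91.6 for its upper 1%. For S2p none was among the first 100. The S2p median of 23.1 exceeded the list's 3.58 but was below the 43.2 at which the upper 1% of that list begins.

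The summits of the 3 proteins nearly coincided in most windows. The S5p summit lay 19 to 135 bp from the 53BP1 summit in all 8, with a median of 68 bp. It was on the lower-coordinate side at RNU7-1, RNU5A-1, RNU5B-1, RNU11, RNU12 and RNU4ATAC, and on the higher side at the RNU4 pair and SNORD118. The gene table gives no strand, so the offsets could not be turned into upstream or downstream. Over all 9507 S5p regions with 53BP1, the median distance to the strongest 53BP1 summit was 57 bp, and 73.7% were within 150 bp, so summits this close were usual in the lists. In the upper 1% of the S5p list the distances were shorter, with a median of 17 bp, an upper quartile of 56.8 bp and 89.3% within 150 bp, and the windows' median of 68 bp was beyond that quartile.

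At the RNU4 pair, RNU5B-1, RNU4ATAC, RNU5A-1 and RNU11 the S2p summit was closer to the S5p summit than the 53BP1 summit was. At SNORD118 the distances were equal, and at RNU12 and RNU7-1 the S2p summit was the further one. The distance between the S5p and S2p summits was 7 bp at the RNU4 pair, 9 bp at RNU5B-1, 10 bp at RNU4ATAC, 16 bp at RNU5A-1, 39 bp at RNU11 and 79 bp at SNORD118. It was 341 bp at RNU12 and 6051 bp at RNU7-1. In 6 of the 8 windows the summits were thus within 100 bp, compared with 19.7% of the 37670 S5p regions that met S2p and 40.1% of the upper 1% of S5p regions. At RNU7-1 the S2p summit lay at 7047024 inside an S2p region of 17662 bp. RefSeq places RNU7-1 inside the span of C12orf57, with ATN1 as the next gene on the lower-coordinate side and PTPN6 on the other, so a wide region there can hold signal of several genes. At RNU12, too, the S2p region was long (18173 bp), running 17132 bp from the 53BP1 summit towards higher coordinates, the side on which RefSeq lists CYB5R3, and 1040 bp towards POLDIP3. Other windows also have overlapping genes in RefSeq: SIRT4 at RNU4-1 and RNU4-2, TAF12-DT at RNU11 and TMEM107 at SNORD118. None is listed over RNU5A-1, RNU5B-1 or RNU12. Signal of overlapping genes was not separated from that of the members.

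**Figure D2:**
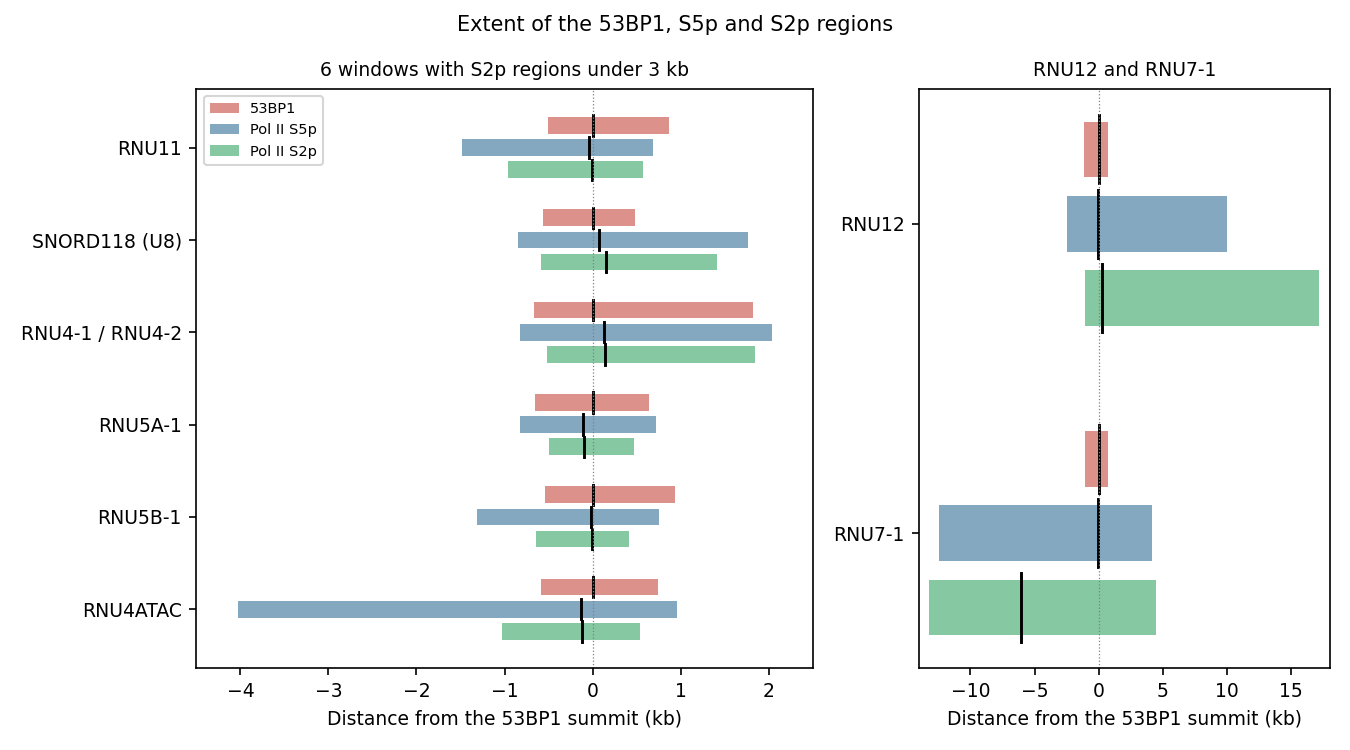
Extent of the 53BP1, S5p and S2p region in each window, as distance in kb from the 53BP1 summit along increasing hg19 coordinates, with black ticks for the summits and different scales in the panels. In the left panel all summits lie within 158 bp of the 53BP1 summit, while at RNU7-1 the S2p summit is 6081 bp away.

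In 6 of the windows the S2p region was under 3000 bp. It was 971 bp wide at RNU5A-1, 1064 bp at RNU5B-1, 1535 bp at RNU11, 1560 bp at RNU4ATAC, 2001 bp at SNORD118 and 2363 bp at the RNU4 pair. The median over the whole S2p list was 1098 bp, so those of RNU5A-1 and RNU5B-1 were slightly below it and the other 4 above it. S2p was also narrower than S5p in these 6 windows: the S5p regions spanned 1544 bp at RNU5A-1, 2065 bp at RNU5B-1, 2175 bp at RNU11, 2612 bp at SNORD118, 2870 bp at the RNU4 pair and 4998 bp at RNU4ATAC. At RNU7-1 and RNU12 the order was opposite, with S5p regions of 16584 and 12473 bp overlapping the longer S2p regions. RNU4ATAC, which RefSeq places within the span of CLASP1, had the most one-sided S5p region of the 6, reaching 4032 bp to the lower side of the 53BP1 summit and 965 bp to the higher.

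The 53BP1 regions were wide for their list, from 1047 to 2493 bp with a median of 1425 bp, against 561 bp over the whole list and 1200 bp over its upper 1% by fold. They did not always stay within Pol II regions. At RNU5B-1 the 53BP1 region ran 187 bp past the S5p region and 521 bp past the S2p region on the higher-coordinate side, and at RNU11 by 176 and 288 bp on that side. The other 6 were wholly inside S5p, as were 94.7% of all 53BP1 regions. Only those of RNU7-1 and SNORD118 were wholly inside S2p (2 of 8, with 52.4% over the list).

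Most S5p regions of comparable strength were wider. The upper 1% of the S5p list by fold held 626 regions with a median width of 8745 bp, and 118 of them (18.8%) were under 3000 bp. Those 118 included 5 of the windows, namely the RNU4 pair, RNU5A-1, RNU5B-1, RNU11 and SNORD118. Each of the 626 regions met both 53BP1 and S2p, so the mere presence of both proteins did not set the windows apart from other S5p regions this strong.

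**Figure D3:**
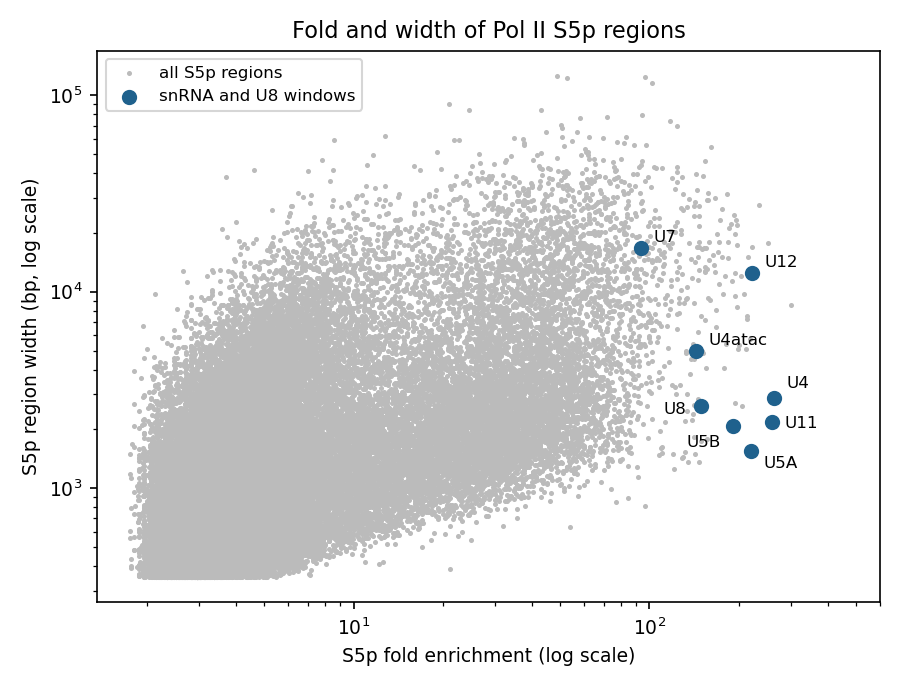
Width in bp against S5p fold for all 62530 S5p regions (grey) and the 8 windows (blue), both axes logarithmic. RNU7-1 (U7) and RNU12 (U12) lie among wide regions, while the RNU4 pair (U4), RNU5A-1 (U5A), RNU5B-1 (U5B), RNU11 (U11) and SNORD118 (U8) lie at the narrow edge at high fold.

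The 53BP1 folds of the windows lay towards the upper end of those at strong S5p regions. Of the other 113 S5p regions in the upper 1% and under 3000 bp, 13 (11.5%) reached the lowest 53BP1 fold of the windows, 47.5, and their median was 12.1 (quartiles 9.06 and 16.99). Of the other 505 regions of 3000 bp or more, 1 did (0.198%), and the median was 13.6. The share of narrow regions depended on how strong an S5p region had to be: in the upper 0.5% of the list, where all 8 windows also lay, 12 of the other 34 narrow regions (35.3%) reached 47.5, with a median of 18.9 and an upper quartile of 56.3. The windows in this wider class were RNU7-1, RNU12 and RNU4ATAC, with 53BP1 folds of 57.8, 66.9 and 47.5. The highest 53BP1 fold in either class, 115, was not at a window. As the windows were picked with their 53BP1 folds known, the counts locate them in the list and carry no test.

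S2p gave a different order. In the other 113 narrow S5p regions the strongest S2p region met had a median percentile of 91.2 (quartiles 89.4 and 93.5) within the S2p list, and in the 505 wider ones 98.1 (93.6 and 99.5). A wide S5p region has more room to meet a strong S2p region, so the classes are not a like comparison. Over all 508 wide regions, windows included, the S2p summit lay a median of 3854.5 bp from that of S5p. The 5 narrow windows had S2p percentiles of 97.5 at the RNU4 pair, 97.3 at RNU11, 97.0 at RNU5A-1, 95.3 at RNU5B-1 and 93.5 at SNORD118. S2p at 4 of them was therefore above the upper quartile of narrow regions, and at all 5 below the median of wide regions. The narrow regions of the upper 0.5% of the S5p list, these 5 included, had a median of 93.7 and an upper quartile of 95.1. SNORD118 was below that median, and RNU5B-1 only just above that quartile. Coincident S5p and S2p summits were common in the narrow class: 97 of the 113 (85.8%) were within 100 bp, against 29.3% of the wider regions, and all 5 narrow windows were. Short S2p regions were usual in that class too, with a median width of 1184 bp over the 113, against 10727 bp over the 505 wider ones.

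**Figure D4:**
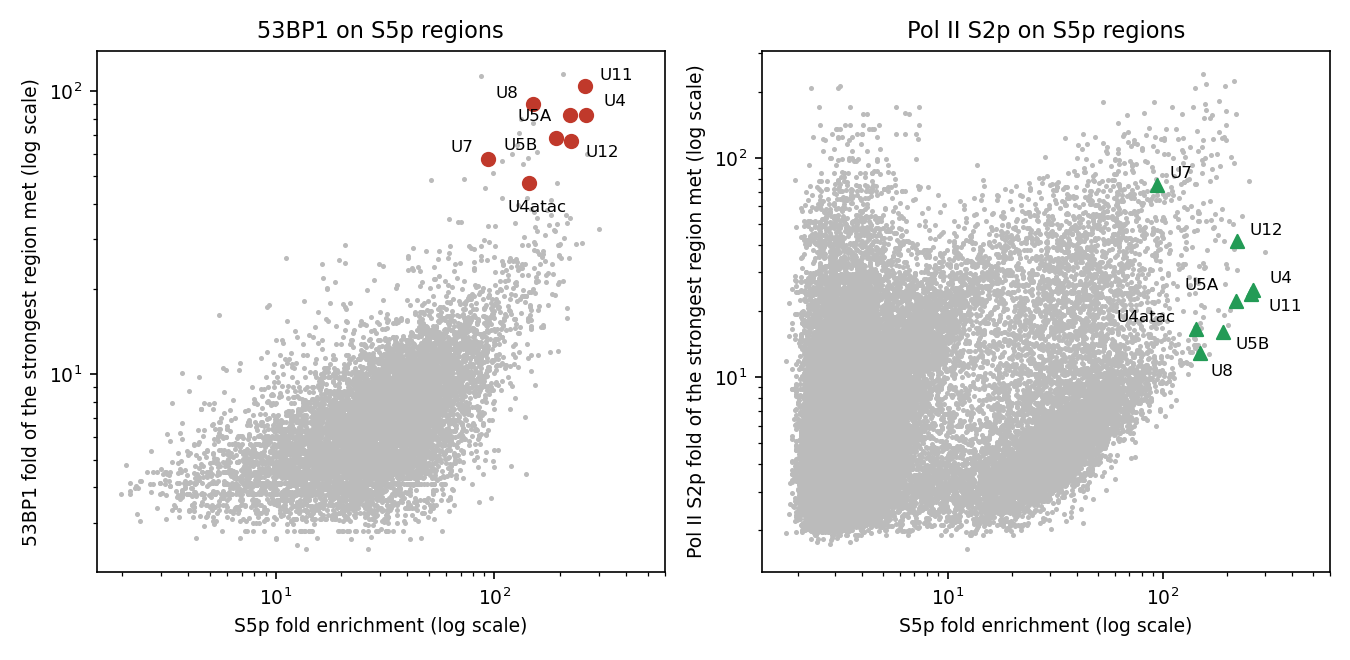
Fold of the strongest 53BP1 region (left) and S2p region (right) met by each S5p region against the S5p fold, all axes logarithmic, with the 8 windows in colour. On the left the windows have 53BP1 folds between 47.5 and 104, near the top of the plot, and on the right S2p folds between 12.8 and 75.4, within the spread of the other regions.

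For each window the strongest other S5p region within 50 kb that belonged to no window was taken as its neighbour, in a comparison set up after the lists had been examined. Lower S5p and 53BP1 folds at the neighbour follow from windows picked for strong enrichment and are given as values only. Near the RNU4 pair an S5p region of fold 62.6 and 61622 bp carried 53BP1 at a fold of only 3.69, beside 82.6 at the genes themselves, while its S2p fold was 93.7, beside 25.04. Near RNU12 an S5p region of fold 75.4 carried a 53BP1 fold of 7.55 and an S2p fold of 93.8. Near SNORD118 the corresponding folds were 41.1 for S5p, 10.2 for 53BP1 and 27.3 for S2p. Taken over the whole neighbouring region, S2p was thus higher than in the window's own S2p region in these 3 windows, and lower in the other 5. Among those 5, the S2p fold of RNU7-1 comes from a summit outside its window. At the RNU4 pair the neighbour's S2p fold of 93.7 came from an S2p region more than 50 kb from the window. Within 50 kb of that window the strongest other S2p fold was 13.7, below the 25.04 at the genes.

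RNU7-1 had the neighbour closest to it in Pol II fold. Its neighbour had an S5p fold of 78.7, near the 93.7 of the window, and an S2p fold of 69.3, near 75.4. That 75.4 belongs to a summit outside the window, 6081 bp from the 53BP1 summit. The neighbour's 53BP1 fold was 11.7, beside the 57.8 known when the window was picked. RNU11 had a neighbour of S5p fold 55.98 that carried 53BP1 at 15.3, the highest neighbouring 53BP1 fold of the 8. RefSeq lists TAF12 next to RNU11 on that side. RNU5A-1 and RNU5B-1 shared 1 neighbour, with an S5p fold of 25.8 and a 53BP1 fold of 4.10, and the neighbour of RNU4ATAC had folds of 14.7 and 3.75.

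**Figure D5:**
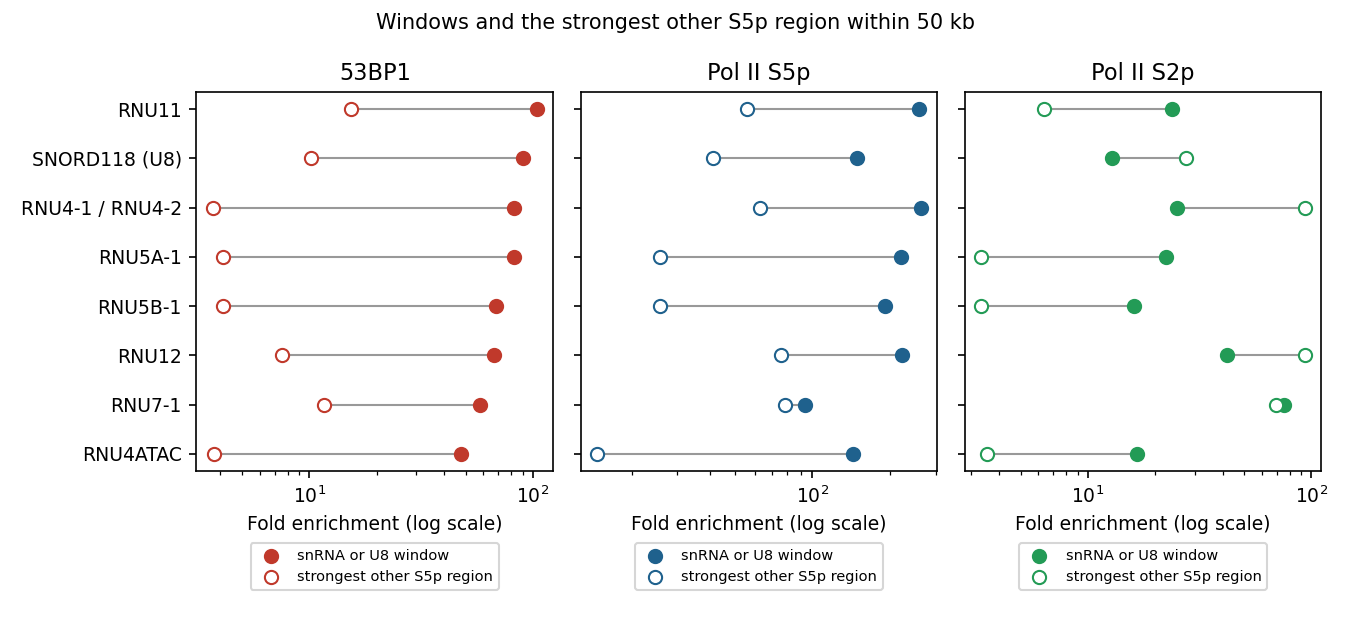
Fold of 53BP1, S5p and S2p (log axes, 1 library each) at each window (filled) and at the strongest other S5p region within 50 kb (open). 53BP1 and S5p are lower at each neighbour, which the choice of strong windows largely fixes, and S2p is higher there at the RNU4 pair, RNU12 and SNORD118. For the RNU4 pair the neighbour's S2p value comes from beyond 50 kb, and for RNU7-1 the window's own S2p value comes from a summit outside the window.

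Over the 53BP1 list the distance to the next region had a median of 27656 bp (quartiles 4799 and 85694). Among the windows with a region, only RNU12 was above that median. No other 53BP1 region lay within 10 kb of the windows of the RNU4 pair, RNU12 and RNU4ATAC, and the next 53BP1 region was 23923, 32005 and 25262 bp away, while 66.4% of all 53BP1 regions had none within 10 kb. At RNU7-1 the next one was 1700 bp away, at SNORD118 2177 bp and at RNU11 4623 bp, each below the lower quartile. RNU5A-1 and RNU5B-1 were each other's next region, at 7488 bp. Counted once each and without those of the windows, 26 53BP1 regions, 58 S5p regions and 56 S2p regions lay within 50 kb of a window, and 5, 14 and 11 within 10 kb.

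RNU2-2, a U2 gene that RefSeq places within the span of WDR74 and next to SNHG1, had no region of any list in its window. On chromosome 11 no list had a region between 62606256 and 62651297, a stretch of 45040 bp. On the lower side it was bounded by an S5p region of fold 41.9 and an S2p region of fold 30.1, and on the higher side by folds of 24.5 and 46.7. Stretches at least as long as its own made up 14.4% of the gaps between neighbouring S5p regions and 11.7% of those of S2p, and 52.6% for 53BP1. The numbers in the region names ran on without a step across it in each list. A list of regions does not show why a stretch is empty, so Pol II and 53BP1 at RNU2-2 were not analysed here.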

How the data were processed

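Cells were crosslinked with formaldehyde and chromatin was sonicated before immunoprecipitation, per the labels' protocols. Per the submitters' processing notes, bcl2fastq 2.20.0.422 produced the reads and hg19 was the genome build. Aligner, peak caller, control and read depth were not given in the sources used here. The authors deposited, for each region, a fold enrichment (ratio over background), −log10 p and q-values, a score and a summit offset, which were used as deposited. The score, which follows the −log10 q-value, was not used further. Unknown depth limits the precision of every fold, and no interval could be given.

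The 53BP1 list held 11605 rows, that of S5p 62532 and that of S2p 54601, and 1, 2 and 1 rows outside chromosomes 1 to 22 and X were left out. Windows took every region overlapping by 1 bp. Percentiles give the share of a list at or below a fold, and rank 1 is the highest. Positions are 1-based. Gene names come from the windows. All 10 symbols were found in the RefSeq table (GRCh38.p14), on the same chromosomes, which served only for names and neighbours. The planned motif search was not run, since 0 of the 10 genes had a promoter in the sequence table. All members were named, and members, lists and comparisons were chosen with earlier results of these data known. Overlap and rank code was tested on simulated data. Alternatives were ranking by −log10 q-value, summits inside windows, a −log10 q-value of 5 or more, 50% overlap and nearest summits. Tools were matplotlib 3.10.9, numpy 2.4.6, scipy 1.17.1 and pandas 2.3.3 under Python 3.11.15.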

Additional observations from a re-analysis of the deposited data

How the results depend on the processing

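All 8 windows kept a region of each list under a stricter limit, a −log10 q-value of at least 5, and 7 kept S2p when the summit had to lie inside the window, RNU7-1 being lost. The median S5p percentile, 99.97 as reported, was 99.95 both by −log10 q-value rank and at the stricter limit, where fewer regions were ranked. The median S2p percentile, 97.1, was 97.0 without the distant summit and 94.8 at the stricter limit. With 50% of the S5p region covered, 4 windows met 53BP1 and 7 met S2p, against 1.495% and 51.0% of the S5p list. At the stricter limit the list medians of width were 651, 1579 and 2212 bp for 53BP1, S5p and S2p, and other regions within 50 kb, summed over windows so that shared ones count again, numbered 17, 40 and 29 in place of 29, 63 and 59, with 6 in place of 13 for S2p within 10 kb. For the upper 0.5% and 2% of S5p regions, chosen after seeing the data, the median width was 10949 and 6840 bp, the share under 3000 bp 12.5% and 25.6%, and the median S2p percentile 98.6 and 94.6. The lowest 53BP1 fold of the windows was then reached by 35.3% and 4.43% of the other S5p regions under 3000 bp (median folds 18.9 and 9.91) and by 0.369% and 0.108% of the wider ones (16.8 and 11.3). At RNU7-1 the nearest S2p summit of any region was 5263 bp from that of 53BP1. No paired analysis was possible because the lists come from single libraries.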
